A study of Mus musculus with 18 samples.

Results

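The genes of glycolysis, lactate production and pyruvate entry into mitochondria were followed in mouse embryonic stem (ES) cells, in germ cells differentiated from those lines, and in germ cells of the fetal gonad and young testis. The set was a list of 39 genes, from the glucose transporters to the pyruvate dehydrogenase subunits, chosen so that the isoforms of each step could be set against each other. A gene was found on the array by its symbol or an older synonym, which gave 66 probes for 38 of the 39 genes, out of 27676 gene names in all. Gapdh had no probe under its own name. Of the 38, 36 had a probe well above background on both arrays of at least 1 group and were tested; the germline isoforms Gapdhs and Pgk2 did not.

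RNA was measured on one-colour Agilent arrays, 2 arrays in each of 9 groups, and the labels give all samples as male and of mixed C57BL/6 and 129SV strain. The ES cells came from a line with a green fluorescent protein (GFP) reporter for Stella, carried on a bacterial artificial chromosome, and from a Dazl-GFP line, both grown on feeder cells with LIF. Each line was sorted undifferentiated into GFP-positive and GFP-negative cells. Differentiated, GFP-positive cells, called in vitro primordial germ cells by the submitters, were taken from the Stella-GFP line at day 7 and from the Dazl-GFP line at days 12 and 16, after removal of feeders. Dazl-GFP-positive germ cells were also sorted from embryonic gonads (E13.5) and from juvenile testes at postnatal days 7 to 11. Each cultured group thus derives from 1 ES line, and the labels do not say whether the 2 replicates are separate cultures or animals, or whether animals were pooled. The p-values then measure only the spread between these samples, which may be technical.

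Glycolysis turns glucose into pyruvate, and lactate dehydrogenase turns pyruvate into lactate, which monocarboxylate transporters carry across the membrane. Pyruvate dehydrogenase instead feeds pyruvate to the mitochondrial citric acid cycle, and the pyruvate dehydrogenase kinases switch it off. Pluripotent stem cells are known for high glycolytic activity, and the male germline is known for isoforms of its own, such as Pgk2, Ldhc, Gapdhs and Pdha2, of which Pgk2 and Pdha2 are intronless copies of X-linked genes.

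A level is the log2 background-subtracted signal minus the log2 of the 75th percentile of the array, so that 0 is the 75th percentile and a difference of 1 is a doubling. Levels of different probes are not comparable, and only changes between groups are compared between genes. The 75th percentile signal ranged from 103 to 474, 50.6% to 68.9% of spots were well above background, and replicates correlated across genes with r between 0.944 and 0.994. With 2 arrays a group, the array number sets the precision. Germ cell markers averaged 4.04 and 3.73 on the E13.5 arrays and 2.88 and 3.15 on the juvenile arrays, against 0.12 and 0.04 in Dazl-GFP-positive ES cells. The library labelled E13.5 replicate 1 stood apart: it alone of the 18 arrays had no signal well above background for Ddx3y and Eif2s3y, both on the Y chromosome. Its meiotic markers averaged 2.53 against -0.43 on replicate 2, and its Sertoli markers -3.39 against -0.66, so counts of calls, called changes and isoform differences that rest on E13.5 are given with and without it where it moves them by over 1.5 times or ends a call, and the changes against ES cells in full. The E13.5 and juvenile arrays shared a slide that held no cultured cells, and a scan day of their own. The day 7 arrays lay on slides of their own with a scan day of their own, and they alone were read under another extraction protocol. For those comparisons with ES or day 16 cells, slide, scan day and, at day 7, extraction protocol cannot be told apart from group.

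**Figure D1:**
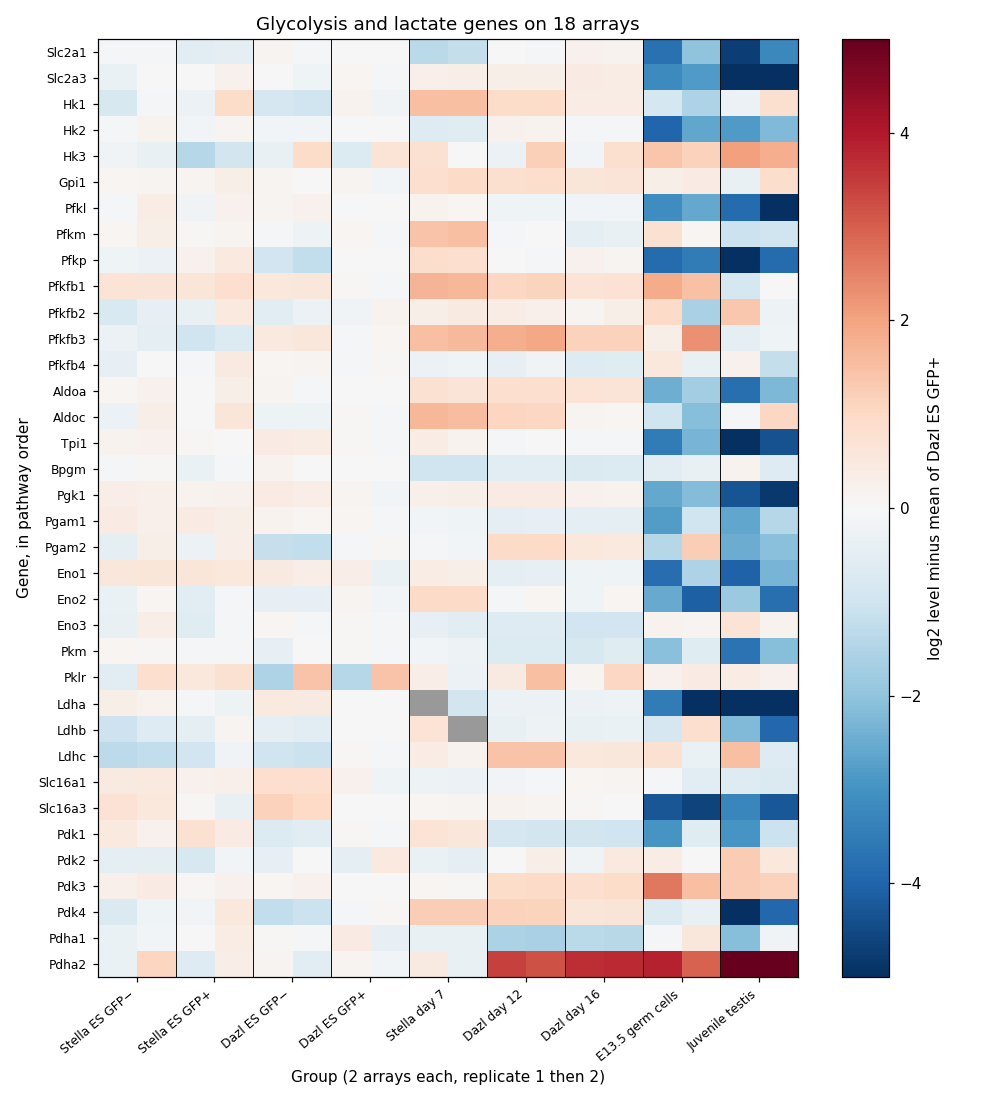
Level of 36 genes on 18 arrays, as the difference from the mean of Dazl-GFP-positive ES cells (log2; the colour scale ends at 5 and -5, and grey marks a spot left out for an outlier flag). Genes are rows in pathway order and arrays are columns, 2 per group. The blue block at E13.5 holds 17 genes that were called lower there than in these ES cells. In juvenile testis Hk1 and Aldoc lie outside it, with means of 3.12 and 2.22 against 2.87 and 1.73 in these ES cells. Pdha2 is red from day 12 on, a direction that turns at day 12 and E13.5 with normexp background correction.

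Promoters were read from RefSeq (GRCm38.p6) for 38 of the 39 genes, as the 250 bases before each annotated start; Slc2a3 had no entry. The 4 below belong to the steps in which both a germline and a somatic isoform were tested. Capitals mark ACGTG or GCGTG on either strand, the core letters read by hypoxia-inducible factor and related proteins. CACGTG, the E-box read by Myc among others, holds ACGTG on both strands. Pdha2 lies at chr3:141212356-141212605 (minus strand), Pdha1 at chrX:160138431-160138680 (minus), Ldhc at chr7:46861013-46861262 (plus) and Ldha at chr7:46845554-46845803 (plus).
Pdha2: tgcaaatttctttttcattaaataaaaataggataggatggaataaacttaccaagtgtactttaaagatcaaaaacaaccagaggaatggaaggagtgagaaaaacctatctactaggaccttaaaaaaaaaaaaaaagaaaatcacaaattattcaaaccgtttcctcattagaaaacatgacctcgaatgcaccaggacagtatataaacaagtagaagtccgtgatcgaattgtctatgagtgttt
Pdha1: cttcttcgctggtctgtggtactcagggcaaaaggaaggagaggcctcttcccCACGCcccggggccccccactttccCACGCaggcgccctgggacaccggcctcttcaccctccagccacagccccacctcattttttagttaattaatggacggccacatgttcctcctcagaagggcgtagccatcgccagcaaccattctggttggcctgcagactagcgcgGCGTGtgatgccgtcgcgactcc
Ldhc: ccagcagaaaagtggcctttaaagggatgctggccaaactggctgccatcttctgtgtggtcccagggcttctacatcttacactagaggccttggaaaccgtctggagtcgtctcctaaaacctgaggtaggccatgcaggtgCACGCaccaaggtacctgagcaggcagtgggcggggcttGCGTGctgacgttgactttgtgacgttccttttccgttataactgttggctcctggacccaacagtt
Ldha: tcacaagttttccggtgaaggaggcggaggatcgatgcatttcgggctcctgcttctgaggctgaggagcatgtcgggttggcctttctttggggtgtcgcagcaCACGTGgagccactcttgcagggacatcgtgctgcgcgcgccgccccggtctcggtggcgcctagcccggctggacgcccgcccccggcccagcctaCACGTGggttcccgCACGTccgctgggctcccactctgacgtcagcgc
The Pdha2 window held 4 CG dinucleotides and no match, and that of Pdha1 15 CG and 3 matches. Ldhc had 8 CG and 2 matches, and Ldha 25 CG and 5 matches on the strands together, its pair of CACGTG counting on both. Ldha and Ldhc each have a further annotated start with a window of its own.

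Over all 60 windows of the 38 genes, 39 (65.0%) held ACGTG or GCGTG on either strand, against 38.6% of 32851 windows of all genes. CACGTG was in 6 windows, against 6.02% of all windows, and TGACGTCA, the full cyclic AMP response element, in 1, that of Ldha (1.67%, against 1.55%). The windows also held more CG dinucleotides than those of all genes, with a median of 10.5 against 6. The 4 germline isoforms Gapdhs, Pgk2, Ldhc and Pdha2 had 0 to 8 CG in their 6 windows. A match describes letters and not a site.

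Within ES cells, sorting on either reporter gave 1 called change among these genes, in a lactate transporter. Between Stella-GFP-positive and Stella-GFP-negative cells, 0 of 36 genes were called at an adjusted p under 0.05 by limma, against 0.438% of all 18934 genes tested (0.0898% higher and 0.349% lower), and 1, Slc16a3, had an unadjusted p under 0.05. The median change was -0.04, and 0.01 over all genes. Arrays did not overlap for 17 of the 36, and for 29.7% of all genes. Between Dazl-GFP-positive and Dazl-GFP-negative cells, 1 of 36 was called, against 2.87% of all genes (1.47% higher and 1.39% lower). This was Slc16a1 (MCT1, a transporter that carries lactate and pyruvate either way), at 3.87 and 3.48 in positive and 4.52 and 4.52 in negative cells.

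Other markers differed between these sorts. Of 4 measured endoderm markers 3 were called lower in Dazl-GFP-positive cells (median -3.62), and of 8 feeder fibroblast markers 3 were called higher (median 2.13). The fibroblast list averaged 0.26 and 0.25 against -1.24 and -1.28 and the endoderm list -2.36 and -2.57 against 0.39 and 0.15, and their part in the result was not tested. Slc16a1 fell by 0.84 ± 0.19 (SE; log2; adjusted p = 0.036). The change was -0.65 and -1.04 within the 2 slides that held both groups, and the adjusted p was 0.051 with the replicate number as a block. The call was lost without any 1 of these 4 arrays, with changes from -0.65 to -1.04. Slc16a3 (MCT4, the lactate exporter of glycolytic cells) had lower levels in positive cells of both lines without a call. It stood at 5.01 and 4.61 against 5.70 and 5.47 in the Stella-GFP line, and at 4.99 and 4.94 against 6.12 and 5.96 in the Dazl-GFP line. For the difference between the sorts of the lines, 0 of 36 genes were called (0.0317% of all genes), and 1 had an unadjusted p under 0.05.

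At day 7, 6 of 36 genes were called against Stella-GFP-positive ES cells, 5 higher and 1 lower, where 20.6% of all genes were, 7.61% higher and 13% lower. At day 12, 5 were higher and 1 lower than in Dazl-GFP-positive ES cells (27.3% of all genes called, 13.1% higher and 14.2% lower), and at day 16, 2 were higher and 2 lower (24.7%, 11.1% higher and 13.6% lower). The members' own shares were 16.7%, 16.7% and 11.1%, below those of all genes in all 3. Their median changes were 0.16, 0.14 and 0.14, against -0.15, -0.11 and -0.15 over all genes. The glucose transporters, hexokinases, Tpi1, Pgk1, Pgam1, Eno1, Pkm and Ldha were among those not called in any of the 3.

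Pfkfb3, whose product makes fructose 2,6-bisphosphate, the main activator of phosphofructokinase, stood at -0.17 and 0.15 in Stella-GFP-positive ES cells and at 2.33 and 2.44 at day 7. In the Dazl-GFP line it went from 0.72 and 0.92 in positive ES cells to 2.66 and 2.77 at day 12 and 1.99 and 1.98 at day 16. The groups did not overlap in any of these comparisons, as was so for 68.7% of all genes at day 7, 75.7% at day 12 and 78.1% at day 16. It rose by 2.40 ± 0.45 (adjusted p = 0.00401) at day 7 and by 1.89 ± 0.45 (adjusted p = 0.00983) at day 12, and the difference of 1.16 ± 0.45 at day 16 was not called. Its sister Pfkfb1 rose by 0.96 ± 0.24 at day 7 and 1.07 ± 0.24 at day 12, while Pfkfb2 and Pfkfb4 did not pass.

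Pfkm, the muscle-type phosphofructokinase, stood at 3.97 and 4.04 at day 7 against 2.61 and 2.69 in Stella-GFP-positive ES cells, with Pfkl and Pfkp not called. It rose there by 1.35 ± 0.21 (adjusted p = 0.00133). At day 12 its levels of 2.47 and 2.55 lay between those of Dazl-GFP-positive ES cells, 2.64 and 2.46. Aldoc, the brain-type aldolase, also rose at day 7, by 1.31 ± 0.40, and Bpgm, which makes 2,3-bisphosphoglycerate, fell by 0.79 ± 0.23. Bpgm fell again at day 16, by 0.71 ± 0.23, together with Eno3, the muscle-type enolase, by 0.96 ± 0.26.

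At the pyruvate branch, Pdk4 rose at day 7 (1.03 ± 0.32) and day 12 (1.14 ± 0.32), and Pdk3 at day 12 (0.92 ± 0.28) and day 16 (0.88 ± 0.28); both encode kinases that inhibit pyruvate dehydrogenase. Pdha1, the somatic E1 alpha subunit of that enzyme, stood at 3.97 and 3.14 in Dazl-GFP-positive ES cells, at 1.99 and 1.92 at day 12 and at 2.22 and 2.18 at day 16. It fell by 1.60 ± 0.49 at day 12 (adjusted p = 0.0332), where its second probe gave -1.53. The change of -1.35 ± 0.49 at day 16 did not pass. All arrays of both time points lay below the ES arrays.

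Pdha2, the testis form of the same subunit, took the other direction. It was not well above background on any of the 8 ES arrays or the 2 day 7 arrays, and was on both arrays of each later group. Its level was -2.70 and -2.94 at day 12 and -2.45 and -2.40 at day 16, after -6.01 and -6.26 in Dazl-GFP-positive ES cells. Against the lowest level measurable on those ES arrays, it was at least 2.26-fold higher at day 12 and at least 2.96-fold higher at day 16. The adjusted p-values of 0.000803 and 0.000426 belong to the fitted differences of 3.32 and 3.71 from ES levels below background, not to these bounds, and the gene passed the filter only through the groups where it is high. With normexp background correction, which adds 50 to each signal, the change turned to -0.22 at day 12 and shrank to 0.53 at day 16, beside a median of all genes of -0.31 and 0.20. Within the slide that held both groups the change was 3.33 at day 12 and 3.86 at day 16.

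The calls at day 12 and day 16 rest on few arrays. Without 1 array of either group, 1 to 3 of the 36 genes were called at day 12 and 1 at day 16, and Pdha2 kept its call in every such fit. At day 7 the counts ran from 2 to 5, and Pfkm and Pfkfb3 kept theirs. Pdha2 was below background on every ES array and passed the filter only through groups where it is high, so its kept call adds no support. Feeder fibroblast markers averaged 0.26 and 0.25 in Dazl-GFP-positive ES cells, with 7 of 8 well above background on both arrays, against -2.69 and -2.56 at day 12 and -1.44 and -1.55 at day 16. In the Stella-GFP line they averaged -0.13 and -2.13 in positive ES cells and -3.19 and -3.25 at day 7. Their part in these changes was not tested.

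**Figure D2:**
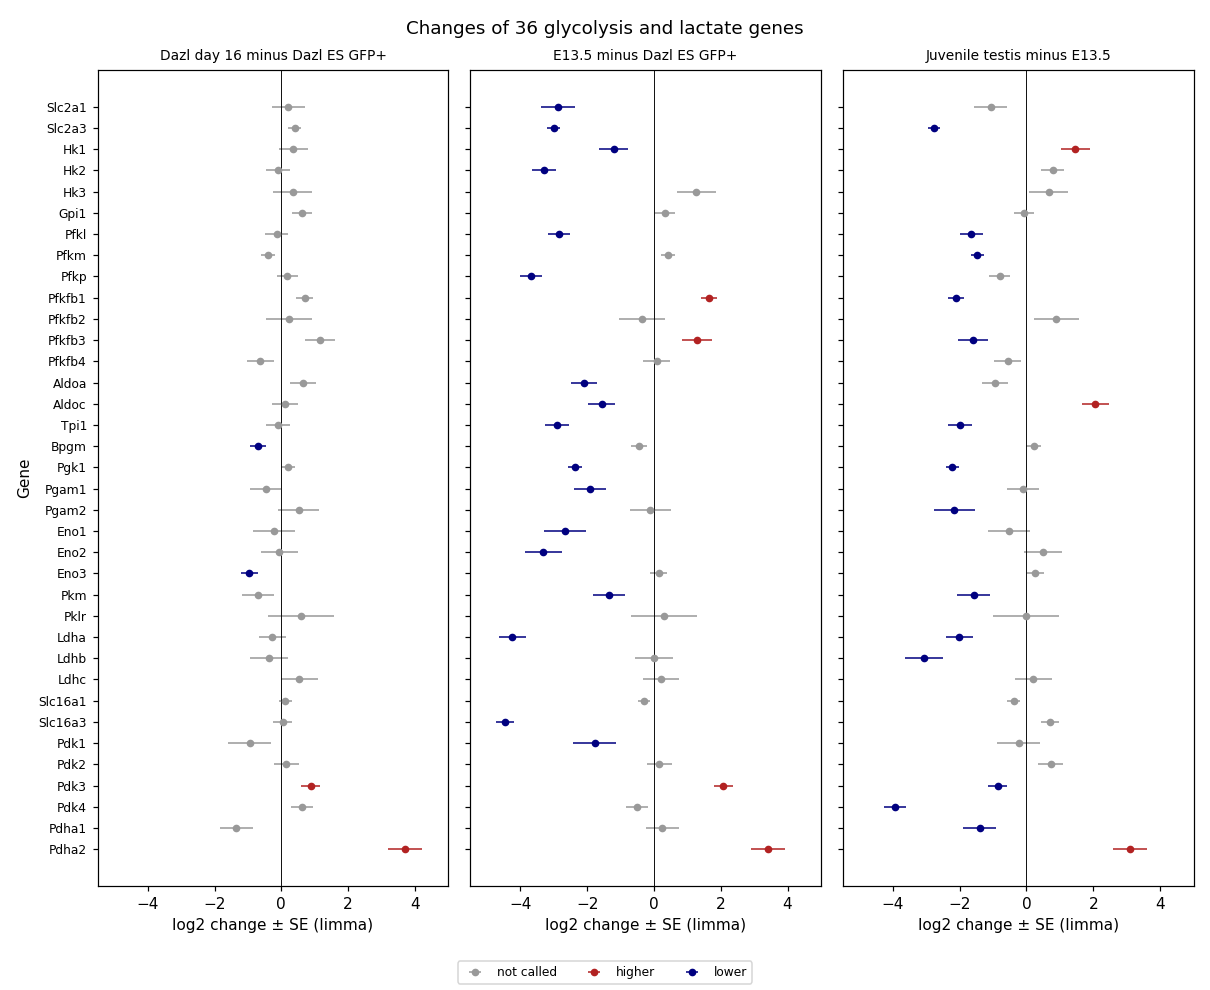
Log2 change with its standard error for 36 genes in 3 comparisons: day 16 against Dazl-GFP-positive ES cells, E13.5 against the same ES cells, and juvenile testis against E13.5 (red called higher, blue called lower, grey not called, at an adjusted p under 0.05 by limma). Day 16 has 4 called genes and E13.5 has 21, of which 17 are lower; the point for Pdha2 at day 16 and E13.5 is measured against ES levels that were not well above background and is there no bound, and its sign at E13.5 turns with normexp background correction.

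In E13.5 germ cells RNA of many genes along glycolysis was lower than in Dazl-GFP-positive ES cells, from the glucose transporters to the lactate exporter Slc16a3. Of 36 genes, 17 fell and 4 rose, where 44.8% of all genes were called, 23.4% higher and 21.4% lower. The median change of the 36 was -0.49, against 0.05 over all genes. Under normexp the median of all genes moved to -0.49 and that of the 36 to -0.77, with 18 lower and 6 higher. In bulk RNA, fewer cells of a type and less RNA per cell cannot be told apart. Without the library labelled E13.5 replicate 1, 17 were lower and 5 higher, and 19 of the 21 calls remained.

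RNA of both main glucose transporters was lower in the germ cells of the gonad. Slc2a3 (GLUT3) stood at 5.88 and 5.71 in Dazl-GFP-positive ES cells and at 2.61 and 2.97 at E13.5, and fell by 3.01 ± 0.19 (adjusted p = 4.14e-07). Slc2a1 (GLUT1) stood at 6.36 and 6.28 and then at 2.59 and 4.32, a fall of 2.87 ± 0.50, or of 2.00 without E13.5 replicate 1. The arrays of the groups did not overlap for either gene.

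Of the hexokinases, which trap glucose in the cell as its phosphate, Hk2, the form induced in growing cells, fell by 3.29 ± 0.35, from 5.09 and 5.10 to 1.12 and 2.49. Hk1, the form most tissues share, fell by 1.21 ± 0.43 (adjusted p = 0.0405), which was lost without E13.5 replicate 2 or either ES array and under normexp. Hk3 was well above background on both arrays at E13.5 and on neither in these ES cells, and was not called. Gpi1, the next enzyme, stood at 6.71 and 6.83 against 6.58 and 6.30, a difference of 0.33 ± 0.30 that did not pass.

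The phosphofructokinases, which commit sugar to glycolysis, split by isoform. Pfkp fell by 3.68 ± 0.32, from 2.91 and 2.94 to -0.92 and -0.58, and Pfkl, the liver-type subunit, by 2.84 ± 0.34, from 3.71 and 3.79 to 0.63 and 1.18. Pfkm stood at 3.31 and 2.63 against 2.64 and 2.46 and was not called. Another probe for Pfkp changed by only -0.60. The bifunctional regulators Pfkfb1 and Pfkfb3 rose, by 1.65 ± 0.24 and 1.29 ± 0.45, but Pfkfb3 differed between the E13.5 arrays, at 1.12 and 3.11, and changed by 0.29 with no call without replicate 2. It was not called without either ES array.

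The called genes of the middle and lower steps all fell. Aldoa, the main aldolase of dividing cells, fell by 2.08 ± 0.39 and Aldoc by 1.56 ± 0.40, which was lost without E13.5 replicate 2 (-0.98). Tpi1, which interconverts the triose phosphates, fell by 2.91 ± 0.36, from 6.40 and 6.25 to 2.84 and 4.00. Pgk1, the first step that yields ATP, stood at 6.90 and 6.59 and then at 4.18 and 4.57, and fell by 2.37 ± 0.20 (adjusted p = 4.45e-06), and by 2.72 on its second probe.

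Pgam1 fell by 1.91 ± 0.47 and Eno1, the widespread enolase, by 2.68 ± 0.63, from 3.97 and 3.31 to -0.18 and 2.10. Eno2, the neuronal enolase, fell by 3.31 ± 0.56, and at E13.5 was well above background on 1 of 2 arrays. Eno3 and Pgam2, the muscle-type forms, were not called. Pkm, the pyruvate kinase, stood at 4.57 and 6.07 against 6.73 and 6.60, and its fall of 1.34 ± 0.48 (adjusted p = 0.0414) was lost without E13.5 replicate 1 (a change of -0.59) or either ES array.

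The largest falls of the set were at lactate. Ldha, the dehydrogenase subunit that favours lactate formation, stood at 7.64 and 7.71 in Dazl-GFP-positive ES cells and at 4.18 and 2.68 at E13.5, and fell by 4.24 ± 0.40 (adjusted p = 1.77e-05), with -4.45 on a second probe. Slc16a3 stood at 4.99 and 4.94 and then at 0.67 and 0.34, and fell by 4.46 ± 0.28 (adjusted p = 4.35e-07). Ldhb, the subunit common in oxidative tissue, stood at 5.93 and 7.62 against 6.77 and 6.76, with overlapping arrays and no call. Ldhc, the sperm-specific subunit, was at 0.93 and -0.19 against 0.20 and 0.11, and Slc16a1 at 3.61 and 3.14 against 3.87 and 3.48. Neither was called, though other probes for Slc16a1 changed by -1.08 and -1.43.

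At pyruvate dehydrogenase, the kinase Pdk3 rose by 2.08 ± 0.28, from 0.06 and 0.11 to 2.73 and 1.59. Pdk1, a kinase induced by hypoxia, fell by 1.78 ± 0.64, but stood at -0.29 and 2.02 on the E13.5 arrays and was not called without replicate 1 (a change of -0.62) or either ES array. Pdha1 stood at 3.48 and 4.13 against 3.97 and 3.14 and was not called; its second probe changed by -1.27. Pdha2, at -2.27 and -3.19, was at least 2.40-fold higher than in ES cells (adjusted p = 0.000256 for the fitted difference from ES levels below background), and its change turned to -0.59 under normexp, against a median of all genes of -0.49.

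Without the library labelled E13.5 replicate 1 the changes against ES cells were as follows. Slc2a3 changed by -2.83, Hk1 by -1.54, Hk2 by -2.61, Pfkl by -2.57 and Pfkp by -3.51. Aldoa changed by -1.72, Aldoc by -2.14, Tpi1 by -2.32 and Pgk1 by -2.17. Eno2 changed by -4.08, but this rests on E13.5 replicate 2, where its level of -5.82 was not well above background. The changes of Pgam1 and Eno1 shrank by over 1.5 times, to -1.01 and -1.54. Ldha changed by -5.0, Slc16a3 by -4.63, Pfkfb1 by 1.46, Pfkfb3 by 2.28, Pdk3 by 1.5 and Pdha2 (against ES levels below background) by 2.94. Pkm and Pdk1 lost their calls as given above.

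Against Dazl-GFP day 16 cells, E13.5 germ cells had 16 genes lower and 5 higher, where 42.5% of all genes were called, 24.1% higher and 18.3% lower. Under normexp 18 were lower and 7 higher. Both comparisons use the same E13.5 arrays. Slc2a3 differed by -3.40, Slc2a1 by -3.08, Hk2 by -3.19, Pfkp by -3.86, Ldha by -3.98 and Slc16a3 by -4.50, each called. Fibroblast markers averaged -1.44 and -1.55 at day 16 and -3.21 and -2.78 at E13.5, and their part in these differences was not tested.

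Pfkm (0.82 ± 0.21), Pfkfb1 (0.95 ± 0.24), Eno3 (1.11 ± 0.26), Pdk3 (1.19 ± 0.28) and Pdha1 (1.61 ± 0.49) were higher at E13.5 than at day 16. Pdk4, the kinase induced by fasting and fatty acid use, was lower by 1.14 ± 0.32. Pluripotency markers averaged 4.23 and 4.22 at day 16 and 1.55 and 2.77 at E13.5, and their part was not tested. Pdha2 did not pass, at -2.27 and -3.19 against -2.45 and -2.40. Other probes of 2 of these 21 genes went the other way, that of Pdha1 at -0.18 and 1 of 5 for Hk1 at 0.08. Without E13.5 replicate 1, the calls of Pgam1 (-0.53), Eno1 (-1.32) and Pdk4 (-0.98) were lost. Pfkm shrank to 0.48 and Pdk3 to 0.62 there. Pdha1 was not called without E13.5 replicate 2 (1.28) or either day 16 array, Hk1 without E13.5 replicate 2 (-1.24) or either day 16 array, Pgam1 and Pdk4 without either day 16 array, and Pfkm without day 16 replicate 1 (0.78).

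Between E13.5 and juvenile testis more of these genes fell than rose, and 19 were not called. Of 36 genes, 14 fell and 3 rose, where 34.9% of all genes were called, 16% higher and 18.9% lower. The median change was -0.54, against -0.08 over all genes. With quantile normalization 12 fell and 5 rose, and with normexp 12 fell and 3 rose. Of the 17 calls, 2 were kept under every alternative run other than leaving out a library. Without the library labelled E13.5 replicate 1, that group keeps 1 array, so a call kept there adds no support. The E13.5 and juvenile groups share 1 slide, so the values lie within it. Sertoli markers averaged 0.75 and -0.49 on the juvenile arrays, with 8 of 8 well above background on both, and -3.39 and -0.66 at E13.5. Of 8 feeder fibroblast markers 5 were called higher and 0 lower in juvenile testis (median 1.83). Of 6 pluripotency markers 5 were called lower and 1 higher (median -4.95). The part of these markers in the changes was not tested.

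Slc2a3 fell further, by 2.77 ± 0.19, to 0.02 and 0.02, and the change of Slc2a1 did not pass, at 1.63 and 3.12 against 2.59 and 4.32. Pgk1 fell by 2.22 ± 0.20, to 2.41 and 1.90 (adjusted p = 1.23e-05). Tpi1 fell by 2.00 ± 0.36, to 0.89 and 1.95, and Pfkl by 1.65 ± 0.34, which was -1.01 without juvenile replicate 2. Ldha fell by 2.01 ± 0.40, to 1.0 and 1.83, and its change was -1.26 without E13.5 replicate 1. In all of these the juvenile arrays lay below both E13.5 arrays, except for Slc2a1, whose groups overlapped.

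Ldhb, Pdk4, Pfkm and Pgam2, which had not been called between ES and E13.5 cells, fell here. Ldhb stood at 4.58 and 2.85 against 5.93 and 7.62, and fell by 3.06 ± 0.57 (adjusted p = 0.00207). Pdk4 fell by 3.94 ± 0.32, from -1.19 and -0.88 to -5.51 and -4.44, with 1 of 2 juvenile arrays well above background. Pfkm fell by 1.47 ± 0.21 and Pgam2 by 2.16 ± 0.62, but Pgam2 was at -2.58 and 0.08 on the E13.5 arrays and was not called without E13.5 replicate 2 (-0.83) or juvenile replicate 1 (-1.97), while its change was -3.49 without E13.5 replicate 1. Pfkfb1, Pfkfb3 and Pdk3, which had risen there, fell by 2.11 ± 0.24, 1.61 ± 0.45 and 0.86 ± 0.28. Pfkfb3 changed by -2.61 without E13.5 replicate 1 and by -0.62 without replicate 2, and lost its call without juvenile replicate 1 (-1.50). Pdk3 lost its call without E13.5 replicate 1 (-0.29) or either juvenile array. Pkm fell by 1.58 ± 0.48 and lost its call without E13.5 replicate 2 (-0.83) or juvenile replicate 1 (-0.80).

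A smaller set went up. Aldoc, at 1.67 and 2.78 against 0.74 and -0.41, rose by 2.06 ± 0.40 (adjusted p = 0.00217), and by 2.24 on its second probe. Hk1, at 2.56 and 3.67 against 1.99 and 1.33, rose by 1.46 ± 0.43, which was lost without juvenile replicate 2 (0.91) or E13.5 replicate 2 (1.13). Another Hk1 probe went the other way, at -4.64 and -4.59 against -4.44 and -4.51, while its remaining probes that passed the filter rose. Pdha2 reached 0.04 and 0.71 and rose by 3.11 ± 0.51 (adjusted p = 0.000719), also without E13.5 replicate 1 (3.57). Its partner Pdha1 fell by 1.39 ± 0.49 (adjusted p = 0.0472), on arrays at 1.43 and 3.39, and lost its call without juvenile replicate 1 (-0.41) or E13.5 replicate 2 (-1.07). Slc16a3, Hk2 and Eno1, low at E13.5, were not called between the gonad stages.

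The germline isoforms were unequal in this material. Pdha2 was the one that rose between E13.5 and juvenile testis. Ldhc was well above background on all 18 arrays and was called in none of the 8 comparisons. Its levels ran from -1.14 and -1.09 in Stella-GFP-negative ES cells to 1.57 and 1.58 at day 12, and stood at 1.64 and -0.49 in juvenile testis. Pgk2 was well above background on 1 of 18 arrays, a juvenile one, at a level of -4.73. Gapdhs was well above background on at most 1 array of any group. Of 8 measured spermatocyte and spermatid markers, Tnp1, Akap4 and Piwil1 were called higher in juvenile testis than at E13.5 and Spaca1 lower, with a median change of -0.01. Acrv1 and Odf1 were not well above background on either juvenile array.

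**Figure D3:**
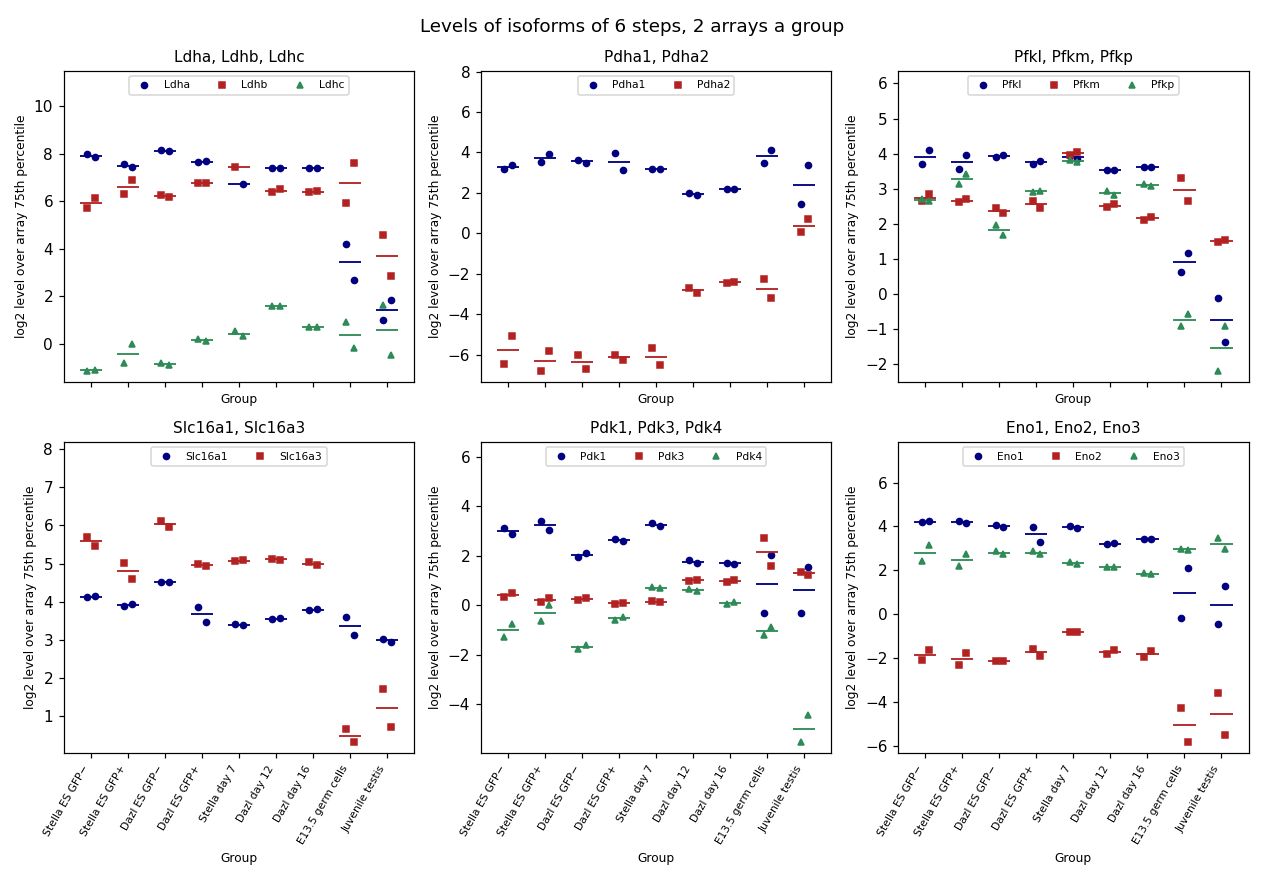
Level (log2 over the 75th percentile of the array) of the isoforms of lactate dehydrogenase, pyruvate dehydrogenase E1 alpha, phosphofructokinase, the monocarboxylate transporters, pyruvate dehydrogenase kinase and enolase in 9 groups. Each point is 1 array and each bar the mean of its group (1 spot each of Ldha and Ldhb at day 7 was left out for an outlier flag); Ldha falls from between 7.38 and 7.42 at days 12 and 16 to 4.18 and 2.68 at E13.5, and Ldhb does not separate there.

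Isoforms of the same step were then set against each other, as the change of one minus the change of the other, in 17 of 19 pairs with both genes measured. With 2 arrays a group the smallest exact two-sided permutation p is 0.333, so no pair was tested. From Dazl-GFP-positive ES cells to E13.5 the arrays did not overlap in 11 of 17 pairs, where 69.3% of single genes did not overlap. From E13.5 to juvenile testis it was 7 of 17 pairs (55.7% of single genes). At day 12 and at day 16 it was 13 of 17 (75.7% and 78.1%), and between day 16 and E13.5 12 of 17 (69.8%). In the ES sorts it was 10 of 17 for the Stella-GFP line and 13 of 17 for the Dazl-GFP line (29.7% and 60%), and at day 7 14 of 16 (68.7%). All these shares are for single genes and not for differences between genes. The share over all gene pairs was not computed, so the pair counts have no matching background.

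Between ES and E13.5 cells, Ldha lost ground to both partners. Ldhb minus Ldha moved by 4.25, from -0.88 and -0.94 to 1.75 and 4.94, and Ldhc minus Ldha by 4.46, from -7.44 and -7.60 to -3.25 and -2.87. Pfkm minus Pfkl moved by 3.27, Eno3 minus Eno1 by 2.82, Hk1 minus Hk2 by 2.08 and Pgam2 minus Pgam1 by 1.79. The arrays did not overlap in any of these, nor for Hk3 minus Hk2, where Hk3 was not well above background in the ES cells. Pdk3 minus Pdk1 moved by 3.85, from -2.64 and -2.48 to 3.03 and -0.43.

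Without E13.5 replicate 1, Pdk3 minus Pdk1 moved by 2.12, Hk1 minus Hk2 by 1.07, Eno3 minus Eno1 by 1.67, Pfkm minus Pfkl by 2.66 and Pgam2 minus Pgam1 by 2.22. Ldhb minus Ldha moved by 5.84 and Ldhc minus Ldha by 4.65 there. The sizes for Pdk3, Hk1 and Eno3 thus changed by over 1.5 times.

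Slc16a3 minus Slc16a1 moved the other way, by -4.16, from 1.12 and 1.46 to -2.94 and -2.80. For Slc2a3 minus Slc2a1 (-0.14), Eno2 minus Eno1 (-0.63) and Aldoc minus Aldoa (0.52) the arrays overlapped. Pfkp minus Pfkl moved by -0.83, and by 0.31 when the mean over probes stood for each gene.

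Without E13.5 replicate 1 the moves from E13.5 to juvenile testis were 5.29 for Pdha2 minus Pdha1, 3.94 for Aldoc minus Aldoa, 2.03 for Ldhc minus Ldha and -1.0 for Slc2a3 minus Slc2a1. With it, Pdha2 minus Pdha1 moved by 4.50, from -5.75 and -7.32 to -1.39 and -2.68, and Aldoc minus Aldoa by 3.0. Ldhc minus Ldha moved by a further 2.22, from -3.25 and -2.87 to 0.64 and -2.33, so that its size differs widely between the juvenile arrays. Slc2a3 minus Slc2a1 moved by -1.69. Ldhb and Ldha both fell, and Ldhb minus Ldha did not separate (-1.05), at 1.75 and 4.94 and then at 3.58 and 1.01. Pdha2 minus Pdha1 had also moved by 4.91 at day 12 and 5.06 at day 16, both with Pdha2 below background in the ES cells. From ES cells to E13.5 it moved by 3.15, and by -1.56 under normexp.

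**Figure D4:**
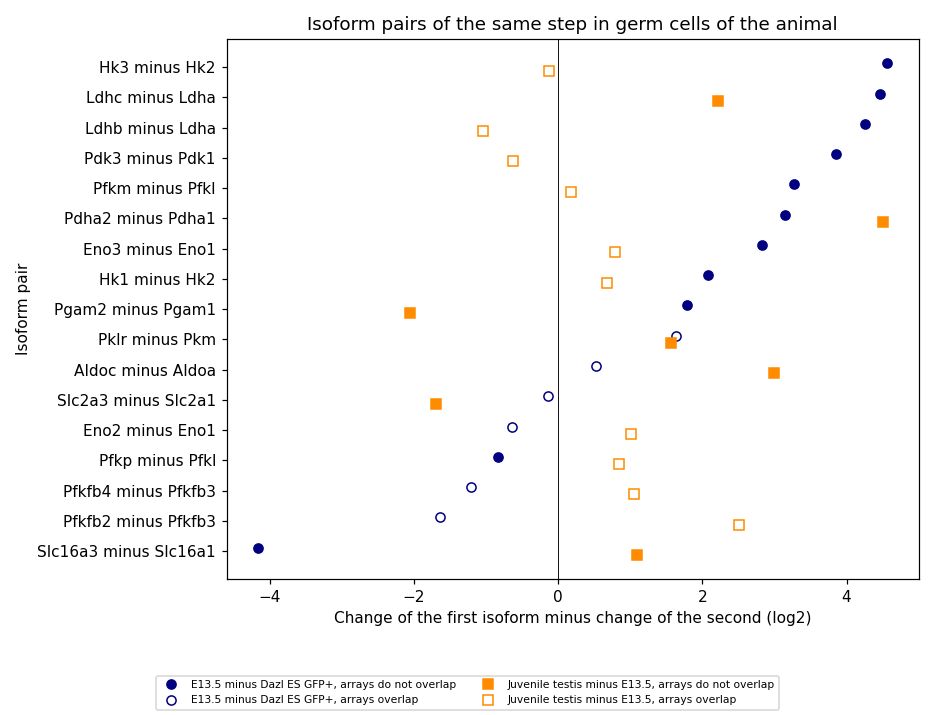
Change of the first isoform minus the change of the second (log2) for 17 pairs, from Dazl-GFP-positive ES cells to E13.5 (circles) and from E13.5 to juvenile testis (squares); filled points are pairs whose arrays did not overlap between the groups. Ldhc and Ldhb against Ldha lie above 4 in the first comparison and Slc16a3 against Slc16a1 at -4.16; Pdha2 against Pdha1 moves by 4.50 in the second, and its value in the first, 3.15, turns to -1.56 with normexp background correction. In the first comparison Hk3 and Pdha2 are set against ES levels that were not well above background.

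Genes around the pathway were read in the same fits, with E13.5 replicate 1 included, and no values without it are given. Of 13 hypoxia-response genes outside glycolysis, 6 rose and 2 fell at day 12 (13.1% of all genes rose and 14.2% fell), among them Bnip3 (1.56 ± 0.17), a mitophagy receptor, P4ha1 (1.81 ± 0.22), a collagen prolyl hydroxylase, and Ndrg1 (2.34 ± 0.31). Between ES and E13.5 cells 1 rose and 5 fell (23.4% and 21.4% of all genes), with Adm (adrenomedullin) at -3.11 ± 0.36 and Vegfa at -1.71 ± 0.48. Between day 16 and E13.5, 0 rose and 6 fell (24.1% and 18.3%). Their medians were 0.74, -0.61 and -0.92, against -0.11, 0.05 and 0.19 over all genes.

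Of 15 regulators, 3 rose and 6 fell between ES and E13.5 cells, or 60% called against 44.8% of all genes. Myc, a factor that activates glycolytic genes, fell by 6.15 ± 0.39, and the hypoxia-inducible factor genes Hif1a and Arnt fell by 1.13 ± 0.15 and 2.40 ± 0.42. Egln1 and Egln2, the prolyl hydroxylases that mark that factor for destruction, rose by 1.94 ± 0.15 and 1.60 ± 0.18. Myc had already fallen by 5.85 ± 0.39 at day 12, and Egln1 had risen by 2.45 ± 0.15. Of the serine and threonine branch, 4 of 7 fell between ES and E13.5 cells (21.4% of all genes fell), with Phgdh, the entry to serine synthesis, at -2.32 ± 0.36 and Tdh, the threonine dehydrogenase of mouse ES cells, at -2.08 ± 0.33.

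Of 8 measured pentose phosphate genes, 3 fell and 3 rose between the same groups, or 75% against 44.8% of all genes. G6pdx, the X-linked entry enzyme, fell by 1.51 ± 0.20, while the transketolase-like gene Tktl1 was at least 4.05-fold higher. Of 28 other glycolytic and fermentation genes, 4 rose and 5 fell, or 32.1%, below the 44.8% of all genes. Gpd2, which passes cytosolic reducing equivalents to mitochondria, fell by 3.64 ± 0.25, and Mpc2, a subunit of the mitochondrial pyruvate carrier, rose by 1.53 ± 0.21. Emb, the chaperone partner of monocarboxylate transporters, fell by 1.31 ± 0.21 there and by 4.18 ± 0.21 from E13.5 to juvenile testis.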

How the data were processed

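Agilent Feature Extraction 9.1.3.1 had read the arrays, under 2 protocols, 1 for the day 7 arrays and the other for all other arrays, per the file headers. Its deposited signal is a linear intensity after background subtraction, with no scaling across arrays, per the file headers. A table of the authors' group means (intensity relative to each array's median) served as an alternative only, with means floored at 0.1. No spot was saturated.

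Of 43379 non-control spots, outlier-flagged ones were set missing (Ldha on day 7 replicate 1, Ldhb on day 7 replicate 2), spots of a probe were averaged, and levels were computed on the log2 scale, since the deposited intensity is linear. The probe with the highest mean level among the 28249 that passed the filter stood for its gene. limma 3.58.1 in R 4.3.3 fitted the 9 groups together (prior 2.39 degrees of freedom, prior SD 0.289), with Benjamini-Hochberg adjustment over 18934 genes. Each gene thus had 1 spread for all 9 groups, although replicates differed more at E13.5 and in juvenile testis than in the cultured groups. A lower group with no array well above background gives a bound, "at least N-fold", against the lowest level well above background on each of its arrays or, if higher, the level of the gene. The analysis was tested on simulated data that gave all groups the same spread for a gene. Such data cannot show how the fit behaves where spreads differ between groups. Figures were drawn with Python 3.11.15 and matplotlib 3.10.9.

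The members and lists were chosen with earlier results of these data known. All members could be named; of the related lists, up to 4 called genes per direction and comparison with the smallest p. The lists were the other glycolytic and fermentation, pentose phosphate, serine and threonine, regulator and hypoxia-response genes, and markers of cell types. The alternatives were quantile normalization, normexp with an offset of 50, no filter or a stricter filter on dim probes, the mean over probes, a block for slide or for replicate number, fits restricted to the arrays of 1 comparison, an intensity trend in the prior, a log2 change of at least 1, and each library left out. A group left with 1 library adds nothing to the spread of a gene, so a call kept in such a fit adds no support. Leaving out E13.5 replicate 1 for isoform changes was added after the data were seen.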

Additional observations from a re-analysis of the deposited data

Results flagged for a closer look

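The change from ES cells differed between the day 12 cells of the Dazl-GFP line and the day 7 cells of the Stella-GFP line for 2 of the 36 genes, by a test of the difference itself in limma, where 3.87% of all genes differed. For Pfkm the Dazl-GFP change was smaller by -1.39 ± 0.29 (SE; log2; adjusted p = 0.0256), with a change of -0.04 at day 12 and of 1.35 at day 7. For Pdha2 the fitted difference was 3.11 ± 0.72 (adjusted p = 0.0377), but no array was well above background in either ES group or at day 7, so that its size rests on levels below background. The day 12 change alone turned to -0.22 under normexp background correction. Line, day and slide all differ between the 2 changes, as does the extraction protocol of the day 7 arrays, and these cannot be told apart.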

How the results depend on the processing

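Between the Dazl-GFP sorts the 1 call became 0 under normexp, with no filter, with the mean over probes, with slide as a fixed block, with a replicate block and at a log2 change of at least 1, became 2 with an intensity trend and 8 with only the arrays compared, and ranged from 0 to 3 without 1 library. At day 12 the 6 calls became 11 with quantile normalization and 17 with only the arrays compared (1 to 8 without 1 library). At day 16 the 4 became 1 under normexp, 2 with the replicate block, 20 with only the arrays compared and 1 at a log2 change of at least 1 (1 to 7 without 1 library). At day 7 the 6 ranged from 2 to 8 without 1 library. The 21 calls at E13.5 became 12 with only the arrays compared against ES cells (17 to 22 without 1 library) and 12 against day 16 (16 to 23), and the 17 of juvenile testis became 2 (14 to 23). A fit of only the arrays compared has fewer samples to estimate the spread from, and it uses the spread of those arrays alone. The main fit shares 1 spread per gene over all 9 groups. The median replicate difference of the members was between 0.04 and 0.09 in the differentiated groups, 0.80 at E13.5 and 1.06 in juvenile testis. The part of these differences in the counts was not tested, nor were other causes. The Stella-GFP sorts gave 0 under every alternative run.

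Under normexp the sign turned for Pdha2 at day 12 (-0.22) and at E13.5 (-0.59), for Eno2 minus Eno1 at day 12 (-0.39) and for Pdha2 minus Pdha1 at E13.5 (-1.56). With the mean over probes it turned for Slc2a3 minus Slc2a1 at day 12 (-0.41) and day 16 (-0.21), for Aldoc minus Aldoa at day 12 (-0.43) and for Pfkp minus Pfkl at E13.5 (0.31), and 6 instead of 10 isoform pairs separated between the Stella-GFP sorts. Of all calls among all genes, the share that was higher moved under normexp from 52.3% to 31.1% for E13.5 against ES cells, from 56.8% to 35.1% against day 16, from 44.9% to 15.4% at day 16 and from 51.4% to 31.6% between the Dazl-GFP sorts, and at day 7 from 37.0% to 48.4%, and to 48.3% with quantile normalization. Replicate numbers are shared between groups, but the labels do not say that they pair samples; deviations of same-numbered arrays correlated between -0.03 and 0.56, and with the replicate block the juvenile comparison had 24 calls in place of 17. Depth is not known for arrays, and signal over background limits Pdha2, Hk3, Pklr, Eno2 and Pdk4 in the dim groups.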

Other observations

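The glycolysis genes differed more between the 2 arrays of each group taken from animals than genes at large. The 2 E13.5 arrays also differed in Y-linked and meiotic signal, at -7.29 and 3.17 for Eif2s3y and at 8.87 and 1.55 for Stra8. They may thus not be like samples, and the part of this in the values below was not tested. The median absolute difference between replicates was 0.80 for the members and 0.52 for all genes at E13.5, and 1.06 and 0.46 in juvenile testis, while in the 3 differentiated groups it was between 0.04 and 0.09 for the members. Replicate 1 was the lower one in both groups for Slc2a1, Aldoa, Tpi1, Pgam1, Eno1, Pkm and Pdk1, by 0.73 to 2.32 at E13.5 and by 1.06 to 1.85 in juvenile testis; these 7 were picked after their values were seen. Over the 36 members the 2 replicate differences had the same sign for 24, with a Pearson's r of 0.47, and an r of 0.25 over all genes. All 4 libraries share a slide, and no test was made.

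A probe named LOC14433, the number that RefSeq gives to Gapdh, was kept out of the set because its name does not match. Its level was -1.20 and -1.18 in Dazl-GFP-positive ES cells, -3.61 and -3.64 at day 16, and -5.63 and -4.61 at E13.5, where it was well above background on 1 of 2 arrays.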
